A study of Mus musculus with 15 samples.

Results

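Skeletal muscle of exercised mice was compared with muscle of sedentary mice in the second of the study's library sets, that is, in the libraries numbered 4 to 6 in each group. These are the numbers in the sample titles. The libraries were chosen by name, not by any measured value, and make up 6 of the 15 libraries of the study. The study set wild-type sedentary muscle beside exercised muscle and beside muscle lacking CD47, a receptor of thrombospondin 1. The sequenced material was total RNA of C57BL/6 mice aged 12 months. All mice had been on a normal diet and were starved overnight before collection, so the controls carry the fast as well. The sedentary group (3 libraries) is labelled as wild type and as a control. The exercise group (3 libraries) is labelled only as exercised, and the kind and length of the exercise, its time before collection and which muscle was taken are not given in the sources used here. No label says whether the libraries of a group came from separate animals, and a p-value here weighs a difference only against the scatter of the libraries, which may be technical. No label calls the numbers 4 to 6 a batch. Exercise libraries 4, 5 and 6 carry the numbers 6, 7 and 8 in the sample descriptions.

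Resting muscle after a fast burns mainly fatty acids. These are released from lipid droplets by lipases, bound to coenzyme A, carried into mitochondria as carnitine esters and shortened by beta oxidation, and the acetyl-CoA formed is oxidised in the tricarboxylic acid (TCA) cycle. Endurance training is known to raise the enzymes of this route, the mitochondrial content of muscle and the share of fast oxidative fibres, through AMP-activated protein kinase (AMPK) and the coactivator PGC-1alpha among others, while a single bout gives a short pulse of immediate early genes.

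Sedentary 6 stood apart from the other 5 libraries. Total counts were 77560451, 77628546 and 74064390 in exercise 4, 5 and 6 and 70774311, 50928458 and 58450267 in sedentary 4, 5 and 6, so the exercise libraries were the deeper ones without overlap. The first principal component of log2-cpm (log2 of counts scaled to library size), with 43.8% of the variance, placed sedentary 6 at 122.42 and the other 5 libraries between -25.82 and -23.44. The second, with 18.3%, placed the exercise libraries between 24.98 and 31.97 and sedentary 4, 5 and 6 at -14.99, -69.7 and -0.09. Correlations of log2-cpm across genes were 0.905 to 0.911 for pairs with sedentary 6 and 0.953 to 0.966 for all other pairs. Mitochondrially encoded genes took 18.2% of the counts of sedentary 6 and 7.81 to 12.5% of the others. Against sedentary 4 and 5, sedentary 6 had lower values for genes with long transcripts. The Spearman correlation was -0.325 with transcript length and 0.213 with GC content across 10430 genes, a description, since the genes share libraries. The log2 fold change of exercise over sedentary correlated 0.123 with GC content and 0.0922 with length with all 6 libraries. Without sedentary 6 these correlations were 0.317 and -0.187. Leaving it out thus gave stronger trends and turned the sign of the one with length, so values without sedentary 6 carry these trends too. Because sedentary 6 stood apart, most results are given both with all 6 libraries and without sedentary 6. Where no value without it is given, the value is that of all 6 libraries. A pair of abundant symbols named only for cloned sequences took 3.50, 3.82 and 1.38% of the counts in exercise 4, 5 and 6 and 5.95, 5.21 and 8.498% in sedentary 4, 5 and 6. These shares did not overlap (exact two-sided permutation test p = 0.1, the smallest that 3 against 3 libraries can give, 0.9 after Benjamini-Hochberg adjustment over 18 such sums). In all 6 libraries, the values 4, 8 and 12 accounted for 45.4 to 50.2% of all counts from 1 to 15, so the deposited counts may not each stand for 1 read.

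**Figure D1:**
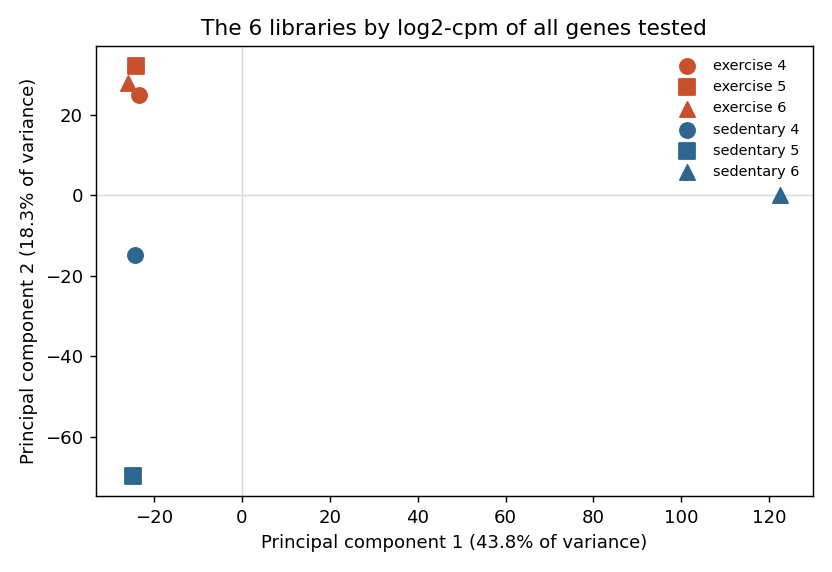
Principal components of log2-cpm over all genes tested, 1 point per library, exercise in one colour and sedentary in the other. Sedentary 6 lies at 122.42 on the first component while the other 5 libraries lie between -25.82 and -23.44, and the second component holds the 3 exercise libraries together at 24.98 to 31.97.

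What exercise changed in fasted muscle was asked gene by gene with edgeR's quasi-likelihood test, which adjusts p-values over all 15714 genes with enough counts. It called 0 genes at an adjusted p under 0.05. At an unadjusted p under 0.05 it gave 849 genes, 5.40% of those tested, with 364 higher (2.32%) and 485 lower (3.09%) in exercise. DESeq2 called 101 genes (0.643%), 55 higher (0.350%) and 46 lower (0.293%), and the groups did not overlap for 99 of them, whereas limma-voom called 0 and had 887 genes at an unadjusted p under 0.05. Without sedentary 6 edgeR called 8 genes (0.0491% of 16303), 5 higher (0.0307%) and 3 lower (0.0184%), and 1886 had an unadjusted p under 0.05 (1060 higher, 6.50%, and 826 lower, 5.07%), while DESeq2 called 515 (3.16%), of which 282 were higher (1.73%) and 233 lower (1.43%). Of these DESeq2 calls 82 were also called, in the same direction, with all 6 libraries. Since edgeR called no gene with all 6 libraries, genes are described below by their levels in each library, by whether the groups overlap, and by a log2 fold change of exercise over sedentary, given as value ± standard error (SE) from the edgeR fit. Of all genes tested, 7.68% were higher in every exercise library than in every sedentary library, and 6.76% were lower in every one. Some genes below carry an adjusted p by DESeq2 over all 6 libraries. None of them passed in edgeR, whose smallest adjusted p was 0.161, or in limma-voom. Levels are CPM, counts scaled to library size with TMM factors. In this bulk tissue, fewer cells of a type and less RNA per cell cannot be told apart.

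The 6 genes with the smallest p-values on the higher side are described first. Acot1, a cytosolic thioesterase that releases free fatty acids from acyl-CoA (chromosome 12, 84009490 to 84018371 of GRCm38), had 8.99, 10.04 and 12.04 CPM in exercise 4, 5 and 6 and 3.92, 4.202 and 2.94 CPM in sedentary 4, 5 and 6. Its log2 fold change was 1.48 ± 0.24, with an adjusted p of 0.651 by edgeR and 2.76e-05 by DESeq2, and 1.36 ± 0.19 without sedentary 6. Every exercise library lay above every sedentary one, though reads can be split between Acot1 and its near-identical neighbour Acot2. Mid1ip1 (chromosome X, 10715013 to 10719690), which helps acetyl-CoA carboxylase to polymerise and so favours fatty acid synthesis, had 50.2, 64.7 and 52.1 CPM in exercise and 21.3, 23.1 and 13.2 CPM in sedentary libraries. Its log2 fold change was 1.53 ± 0.26, and without sedentary 6 it passed in edgeR, with 1.34 ± 0.15 and an adjusted p of 0.0495. Aldh2 (chromosome 5, 121566027 to 121593824), the mitochondrial aldehyde dehydrogenase that clears lipid-derived aldehydes and acetaldehyde, showed the tightest groups of the 6, with 164, 159 and 171 CPM against 85.4, 80.6 and 75.4 CPM. Its log2 fold change was 1.03 ± 0.18 with all libraries (adjusted p = 1.93e-07 by DESeq2) and 1.00 ± 0.11 without sedentary 6, where the adjusted p by edgeR was 0.0495. Plin5, a coat protein that ties lipid droplets to mitochondria (chromosome 17, 56111601 to 56117596), had 55.5, 86.7 and 77.8 CPM against 27.3, 30.9 and 17.5 CPM, a log2 fold change of 1.54 ± 0.28, or 1.34 ± 0.19 without sedentary 6.

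The remaining pair of the 6 were carriers of the mitochondrial inner membrane. Slc25a34, a carrier of the SLC25 family whose cargo is not settled (chromosome 4, 141618824 to 141623821), had 43.4, 59.96 and 67.9 CPM in exercise and 23.3, 20.9 and 13.5 CPM in sedentary libraries, a log2 fold change of 1.57 ± 0.28, or 1.38 ± 0.19 without sedentary 6. Slc25a22, which carries glutamate into mitochondria (chromosome 7, 141429744 to 141437892), had 21.5, 26.7 and 24.2 CPM against 11.04, 10.7 and 13.4 CPM, a log2 fold change of 1.04 ± 0.19, or 1.16 ± 0.15 without sedentary 6. In both carriers every exercise library was above every sedentary library. Retsat, a retinol saturase, and Padi2, a peptidylarginine deiminase that turns arginine into citrulline in proteins, also did not overlap. Retsat, chosen after its values were seen, had 76.1, 84.3 and 102 CPM against 44.1, 45.9 and 33.3 CPM (1.09 ± 0.21, 0.97 ± 0.14 without sedentary 6). Padi2 had 119, 155 and 159.9 CPM against 107, 94.8 and 73.4 CPM (0.66 ± 0.23, 0.53 ± 0.15 without sedentary 6).

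The 6 genes with the smallest p-values on the lower side follow. Nutf2, which carries the GTPase Ran into the nucleus (chromosome 8, 105860580 to 105879330), had 21.3, 19.1 and 17.996 CPM in exercise and 43.1, 43.6 and 44.9 CPM in sedentary libraries, and its log2 fold change was -1.17 ± 0.17, with an adjusted p of 0.651 by edgeR and 1.59e-07 by DESeq2, or -1.14 ± 0.13 without sedentary 6. Selenoi, the selenoenzyme that makes phosphatidylethanolamine (chromosome 5, 30232581 to 30272427), had 1.14, 1.35 and 0.9202 CPM against 6.31, 7.96 and 3.72 CPM. Its log2 fold change was -2.37 ± 0.35, and without sedentary 6 it passed in edgeR with -2.61 ± 0.25 and an adjusted p of 0.0458. Cnot7, a deadenylase of the CCR4-NOT complex that shortens poly(A) tails (chromosome 8, 40492540 to 40515847), had 6.56, 9.25 and 8.998 CPM against 19.7, 25.6 and 21.5 CPM. Its log2 fold change was -1.43 ± 0.22, or -1.44 ± 0.19 without sedentary 6. Tmem100, a membrane protein of endothelial BMP signalling (chromosome 11, 90030348 to 90036508), had 13.8, 18.1 and 19.9 CPM against 45.3, 41.3 and 40.1 CPM (-1.29 ± 0.20, or -1.31 ± 0.17 without sedentary 6). Sar1a, the GTPase that starts COPII vesicles at the endoplasmic reticulum (chromosome 10, 61680299 to 61693297), had 34.3, 29.04 and 25.5 CPM against 59.9, 66.9 and 69.8 CPM (-1.15 ± 0.19, or -1.08 ± 0.15 without sedentary 6). Myl4, the embryonic and atrial myosin light chain (chromosome 11, 104550663 to 104595753), had 4.53, 6.73 and 4.56 CPM against 16.2, 11.5 and 19.5 CPM (-1.57 ± 0.28, or -1.38 ± 0.24 without sedentary 6). In each of these 6 genes all exercise libraries lay below all sedentary libraries. DESeq2 gave adjusted p-values of 1.15e-06 for Selenoi, 1.08e-05 for Cnot7, 1.10e-05 for Tmem100, 1.08e-04 for Sar1a and 5.10e-04 for Myl4.

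Another 3 genes are named because of how their values fell, after these were seen. The gene model Gm15564 (chromosome 16, 35966752 to 35983230) had 33.01, 31.5 and 13.2 CPM in exercise 4, 5 and 6 and 0 counts in all 3 sedentary libraries. If each count stands for 1 read, a count of 0 allows up to 3 counts, or 0.0405 to 0.0631 CPM. Gm15564 had the smallest adjusted p of all genes tested (0.161 by edgeR, 1.63e-20 by DESeq2). Nfix (chromosome 8, 84699876 to 84800344) is a transcription factor of muscle development. It had 30.9, 31.2 and 36.5 CPM in exercise and 144, 166 and 8.896 CPM in sedentary 4, 5 and 6. Sedentary 6 thus lay below the exercise libraries while the other sedentary libraries lay far above, and the log2 fold change was -1.69 ± 0.84 with all libraries and -2.22 ± 0.13 without sedentary 6 (adjusted p = 0.00296 by edgeR). Rps27rt (chromosome 9, 114982366 to 114982739), a retrotransposed copy of the ribosomal protein gene Rps27, had 44.8, 49.8 and 43.7 CPM against 7.205, 9.48 and 77.6 CPM. Here sedentary 6 was the highest library, and the log2 fold change was 0.55 ± 0.83 with all libraries and 2.48 ± 0.17 without sedentary 6 (adjusted p = 0.00529 by edgeR). Reads can be split between Rps27rt and Rps27, which went the other way (log2 fold change -0.95 ± 0.34, or -0.47 ± 0.12 without sedentary 6).

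Fatty acid uptake and oxidation was the list with the most members apart between the groups. All 33 members passed the filter on low counts, and 25 were higher in every exercise library than in every sedentary one and 0 lower, against 7.68% and 6.76% of all genes tested. The median log2 fold change was 0.71, with 30 of 33 above 0, where all genes tested had a median of -0.03 and 47.2% above 0. Without sedentary 6 the counts were 30 and 0 of 33, against 15.6% and 15.3% of all genes, and the median was 0.57 (0.01 over all genes, 51.5% above 0). At an unadjusted p under 0.05 there were 19 of 33 on the higher side, against 2.32% of all genes tested. DESeq2 called 1 member with all libraries and 19 without sedentary 6, each in the higher direction. The shares over all genes were 0.350% and 1.73%.

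Hadha and Hadhb encode the alpha and beta subunits of the trifunctional protein, which carries out the last 3 steps of long-chain beta oxidation, and they start head to head. Their promoter is shown because both members lay higher in all exercise libraries and the whole stretch lies between their start sites, 273 bases apart. Slc25a34 is shown beside it because it has the largest log2 fold change of the 6 higher genes above and holds a nuclear receptor hexamer. Each run ends at the base before the start site of the gene named and is written 5′ to 3′ on its strand (RefSeq, GRCm38.p6). Capitals mark AGGTCA or its reverse complement TGACCT, the hexamer that PPAR and estrogen-related receptors recognise.
Hadhb promoter, chr5:30155003-30155252, plus strand: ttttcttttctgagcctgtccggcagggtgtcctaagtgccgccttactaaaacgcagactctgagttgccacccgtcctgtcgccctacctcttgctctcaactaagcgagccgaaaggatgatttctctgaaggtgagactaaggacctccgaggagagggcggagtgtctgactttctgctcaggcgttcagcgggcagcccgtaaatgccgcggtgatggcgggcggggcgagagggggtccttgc
Slc25a34 promoter, chr4:141623835-141624084, minus strand: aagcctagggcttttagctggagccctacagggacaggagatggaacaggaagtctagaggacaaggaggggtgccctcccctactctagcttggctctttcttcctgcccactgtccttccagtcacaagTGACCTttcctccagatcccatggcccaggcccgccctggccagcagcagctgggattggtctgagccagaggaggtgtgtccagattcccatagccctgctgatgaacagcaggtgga
The hexamer occurs 0 times in the Hadhb stretch and 1 time in the Slc25a34 stretch. Over windows of this length, on both strands, it was present in 13.2% of 10827 genes tested, in 5 of 26 fatty acid oxidation genes (19.2%), 3 of 21 TCA cycle genes (14.3%), 4 of 19 branched-chain and ketone genes (21.1%) and 4 of 17 lipid handling genes (23.5%). A match is a description of letters and not a bound site, and a window without one says only that these letters are not in it.

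Uptake and activation come first along the route. Cd36, the fatty acid translocase of the cell surface and also a receptor of thrombospondin 1, had 200.02, 265 and 273 CPM in exercise 4, 5 and 6 and 152, 156 and 138 CPM in sedentary 4, 5 and 6 (log2 fold change 0.73 ± 0.21, or 0.68 ± 0.15 without sedentary 6). Slc27a1, which couples uptake to acyl-CoA formation, had 157, 166 and 185 CPM against 98.4, 95.6 and 79.9 CPM, a log2 fold change of 0.89 ± 0.19, or 0.82 ± 0.12 without sedentary 6. It was the member called by DESeq2 with all libraries (adjusted p = 0.001200; 5.00e-07 without sedentary 6). Fabp3, the fatty acid binding protein of muscle cytosol, had 836, 1228 and 1293 CPM against 639.9, 630.1 and 772 CPM (0.72 ± 0.24, or 0.83 ± 0.19 without sedentary 6). None of these 3 genes overlapped between the groups. Acsl1, the main acyl-CoA synthetase of muscle, did not overlap either, but its log2 fold change of 1.17 ± 0.88 rested in part on sedentary 6: levels were 305, 409 and 391 CPM in exercise and 246, 234 and 11.4 CPM in sedentary libraries, and without sedentary 6 it was 0.63 ± 0.15. The transporter Slc27a4 and the synthetase Acsl6 overlapped (0.20 ± 0.20 and -0.02 ± 0.32).

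The carnitine shuttle followed. Cpt1b, the muscle carnitine palmitoyltransferase and the gated step of entry into mitochondria, had 379, 436 and 533 CPM in exercise and 326, 334 and 310.4 CPM in sedentary libraries (0.48 ± 0.21, or 0.46 ± 0.16 without sedentary 6). Slc25a20, the carnitine-acylcarnitine exchanger, had 120.4, 130.1 and 154 CPM against 89.6, 92.003 and 56.1 CPM (0.77 ± 0.25, or 0.58 ± 0.13). Cpt2, which reforms acyl-CoA on the matrix side, had 97.4, 92.4 and 131 CPM against 68.6, 64.7 and 46.9 CPM (0.83 ± 0.24, or 0.69 ± 0.17). All 3 steps lay higher in every exercise library, with Cpt1b showing the smallest difference. Crat, which makes acetylcarnitine, overlapped (718, 621 and 438 CPM against 571, 558 and 552 CPM). Mlycd, which removes malonyl-CoA, the inhibitor of Cpt1b, had 252, 208 and 229 CPM against 158, 165 and 166 CPM and did not overlap (0.49 ± 0.18, or 0.52 ± 0.13 without sedentary 6).

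Within the matrix, the acyl-CoA dehydrogenases for very long (Acadvl), long (Acadl), medium (Acadm) and short chains (Acads) were each higher in all exercise libraries. Acadl had 324, 418 and 434 CPM in exercise and 257, 264 and 152 CPM in sedentary libraries (0.81 ± 0.27, or 0.60 ± 0.15 without sedentary 6). Acads had 68.5, 73.96 and 83.9 CPM against 51.7, 50.2 and 54.6 CPM (0.53 ± 0.17, or 0.58 ± 0.12). The differences of Acadvl and Acadm were 0.72 ± 0.23 and 0.71 ± 0.36, or 0.66 ± 0.18 and 0.41 ± 0.15 without sedentary 6, which was the lowest library for both. The hydratase Echs1, the dehydrogenase Hadh and the thiolase Acaa2 complete the short-chain spiral. Acaa2 had 203, 251 and 275 CPM against 136, 125 and 162 CPM (0.79 ± 0.21, or 0.91 ± 0.15 without sedentary 6). Hadha had 495, 567 and 618 CPM against 366, 369 and 291 CPM (0.71 ± 0.21, or 0.62 ± 0.13), and Hadhb had 269.6, 343 and 379 CPM against 231, 223 and 69.3 CPM (0.92 ± 0.44, or 0.55 ± 0.15). Without sedentary 6 the differences of the 2 subunits were close to each other.

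Auxiliary and peroxisomal enzymes were mixed with all 6 libraries. Without sedentary 6, 30 of the 33 list members lay higher in every exercise library, against 15.6% of all genes. Some members that overlap here were therefore apart in that setting. The isomerases Eci1 and Eci2 and the reductase Decr1, which handle unsaturated chains, did not overlap (0.46 ± 0.18, 0.54 ± 0.19 and 0.61 ± 0.20, or 0.49 ± 0.12, 0.44 ± 0.12 and 0.53 ± 0.13 without sedentary 6). Of the electron carriers to the respiratory chain, Etfdh did not overlap (0.79 ± 0.37, or 0.49 ± 0.19 without sedentary 6), while Etfa and Etfb did (0.71 ± 0.38 and 0.19 ± 0.29). In peroxisomes, the bifunctional enzymes Ehhadh and Hsd17b4 did not overlap (0.90 ± 0.33 and 1.01 ± 0.34, or 0.67 ± 0.25 and 0.73 ± 0.15 without sedentary 6), and the thiolase Acaa1a overlapped (-0.03 ± 0.20). Acot2, the mitochondrial thioesterase, had 78.5, 86.4 and 92.05 CPM against 44.7, 57.9 and 54.4 CPM (0.71 ± 0.19, or 0.75 ± 0.14 without sedentary 6). The other members that overlapped were Acot13 (-0.11 ± 0.30) and Hsd17b10 (0.07 ± 0.20), both highest in sedentary 6.

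**Figure D2:**
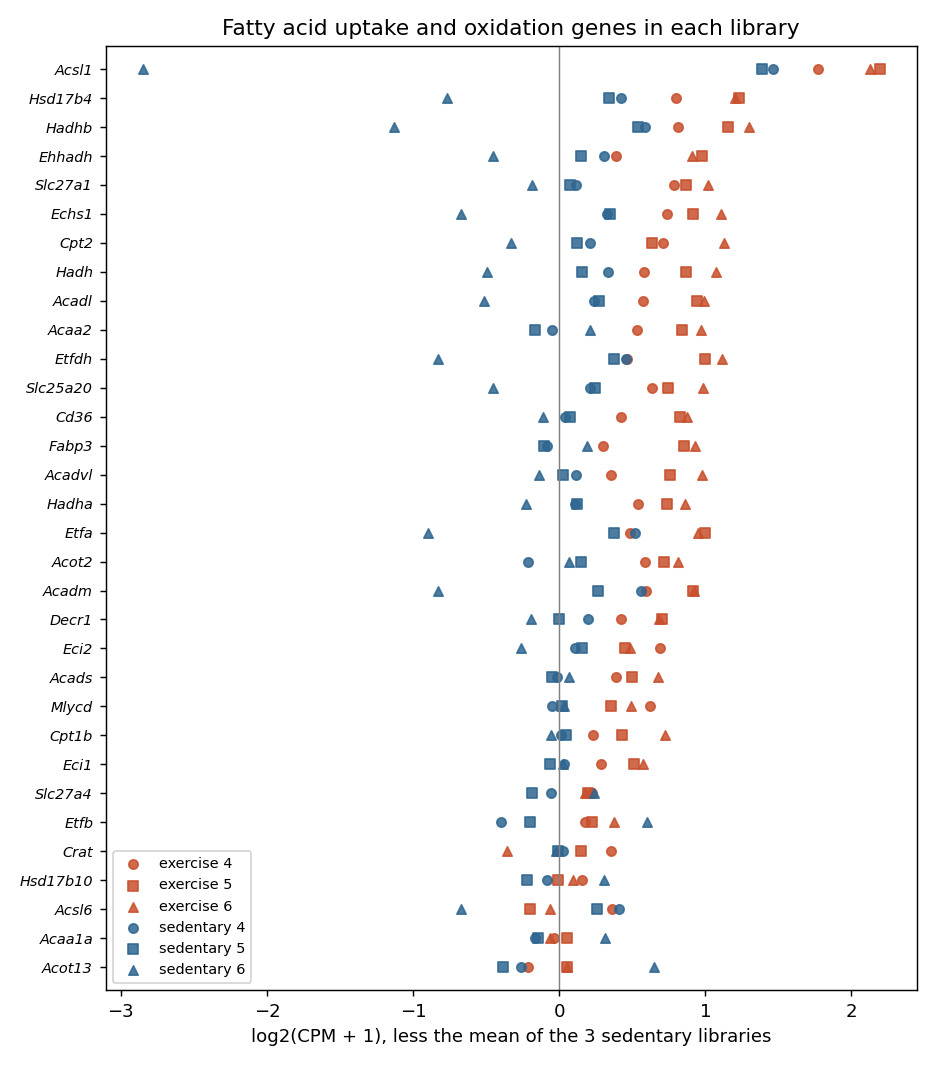
Each row is 1 of 32 genes of fatty acid uptake and oxidation and each point a library, placed at log2(CPM + 1) less the mean of the 3 sedentary libraries, so that 0 is the sedentary mean. For 24 of the 32 genes all exercise points lie to the right of all sedentary points, and sedentary 6 is far to the left for Acsl1, with 11.4 CPM.

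Of 24 genes of lipid handling and uncoupling, 9 lay higher in all exercise libraries and 0 lower, against 7.68% and 6.76% of all genes tested. The median was 0.26. Without sedentary 6 the counts were 12 and 0, against 15.6% and 15.3% of all genes, with a median of 0.19. DESeq2 called 4 on the higher side, Plin5, Dgat2, Plin3 and Pnpla2, and 7 without sedentary 6. The shares over all genes were 0.350% and 1.73%. Dgat2, which makes triglyceride in its last step, had 49.2, 85.1 and 81.5 CPM in exercise and 31.02, 28.1 and 15.7 CPM in sedentary libraries (1.53 ± 0.33, or 1.29 ± 0.24 without sedentary 6; adjusted p = 0.00611 by DESeq2). Plin3, another droplet coat protein, had 23.7, 33.5 and 41.6 CPM against 17.4, 16.4 and 12.8 CPM (1.08 ± 0.25, or 0.97 ± 0.22). Pnpla2, the adipose triglyceride lipase that takes off the first fatty acid, had 496, 482 and 507 CPM against 293, 289 and 326 CPM (0.71 ± 0.18, or 0.78 ± 0.11; adjusted p = 0.00226 by DESeq2). Levels within each group were close for Pnpla2, whose lowest exercise library was well above its highest sedentary one. The next lipases down the chain, Lipe and Mgll, did not overlap either, with 0.59 ± 0.18 and 1.42 ± 0.49, or 0.61 ± 0.14 and 1.12 ± 0.55 without sedentary 6. Mgll was uneven among sedentary libraries, at 44.5, 13.4 and 12.3 CPM.

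Fat cells express several of these genes too, so their markers are given beside them. Of 11 adipocyte markers 10 passed the filter, 2 of 10 had a log2 fold change above 0, and the median was -1.03, or -0.50 without sedentary 6 (0.003 by limma-voom without it). Adipoq, the fat cell hormone adiponectin, had 0.396, 0.148 and 0.601 CPM in exercise and 0.2298, 2.74 and 1.79 CPM in sedentary libraries (-1.97 ± 0.85, or -1.86 ± 1.01). Lep, leptin, had 0.148, 0 and 0.0511 CPM against 0.162, 0.441 and 0.862 CPM (-2.43 ± 1.05, or -1.78 ± 1.20), and Cfd, adipsin, 3.09, 0.198 and 2.85 CPM against 1.27, 6.66 and 10.1 CPM (-1.54 ± 0.98, or -0.92 ± 1.28). Levels of these markers were low and uneven, and other members went the other way, up to a log2 fold change of 0.62. Of the 10, Lep was the 1 without overlap, on the lower side, against 6.76% of all genes tested. Without sedentary 6, 3 lay higher and 2 lower, against 15.6% and 15.3% of all genes, and 4 of 10 were above 0. The list summed to 1246 to 1277 CPM against 1266 to 1613 CPM, most of it Car3, a carbonic anhydrase that muscle fibres also express (1050.2, 1019 and 1017 CPM against 1366, 1434 and 993 CPM). The part of fat cells in the lipid gene values was not tested.

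Pdk4, Ucp3 and Angptl4, members of the same list named for their known response to a fast, overlapped, and whether they differ from the other members was not tested. Pdk4, the kinase that shuts pyruvate dehydrogenase, had 1375, 1737 and 2042 CPM in exercise and 1496, 2019.95 and 735 CPM in sedentary libraries (0.28 ± 0.38, or -0.02 ± 0.20 without sedentary 6). Ucp3, the uncoupling protein of muscle, had 493, 419 and 519 CPM against 457, 488 and 325 CPM (0.17 ± 0.23, or 0.03 ± 0.13). Angptl4, an inhibitor of lipoprotein lipase, had 15.98, 7.49 and 19.3 CPM against 13.5, 15.2 and 13.5 CPM (0.02 ± 0.34, or 0.01 ± 0.39). In each of the 3 genes the exercise values fell on both sides of sedentary values, and the difference was smaller than its SE. The lipase itself, Lpl, had 194, 392 and 389.8 CPM against 183, 179 and 317 CPM, with sedentary 6 inside the exercise range (0.52 ± 0.36, or 0.85 ± 0.32 without sedentary 6).

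In the TCA cycle list, the pyruvate dehydrogenase genes included, 17 of 24 members lay higher in all exercise libraries and 0 lower. This stood against 7.68% and 6.76% of all genes tested, and the median was 0.48. Without sedentary 6 the counts were 17 and 1, against 15.6% and 15.3% of all genes, and the median was 0.35. DESeq2 then called 7 higher and 1 lower, against 1.73% and 1.43% of all genes. With all libraries it called 1, on the higher side, against 0.350%. Idh2, the NADP-dependent isocitrate dehydrogenase of mitochondria, had 312, 427 and 429.5 CPM in exercise and 200.4, 199 and 179.6 CPM in sedentary libraries (1.01 ± 0.21, or 0.97 ± 0.16 without sedentary 6; adjusted p = 9.50e-04 by DESeq2). Suclg2, the GTP-forming subunit of succinyl-CoA ligase, had 65.2, 69.4 and 71.6 CPM against 31.5, 46.6 and 23.7 CPM (1.02 ± 0.27, or 0.83 ± 0.17). Mdh2, which closes the cycle as malate dehydrogenase, had 1228, 1149 and 1306 CPM against 939, 853 and 895 CPM (0.46 ± 0.19, or 0.47 ± 0.13). Sdhc, a membrane anchor of succinate dehydrogenase, had 332, 377 and 376 CPM against 287, 251 and 244 CPM (0.47 ± 0.19, or 0.44 ± 0.12). Citrate synthase (Cs), the enzyme often assayed as a measure of mitochondrial content, had 1111, 1117 and 1294 CPM against 927, 817 and 460.4 CPM (0.68 ± 0.29, or 0.44 ± 0.14). For all 5 the groups did not overlap, and the differences of Mdh2 and Sdhc changed least when sedentary 6 was left out. Dlst, the succinyltransferase of the 2-oxoglutarate dehydrogenase complex, went the other way, with 107, 197 and 145 CPM against 285, 247 and 125 CPM (-0.55 ± 0.36, overlapping, or -0.82 ± 0.24 without sedentary 6, where the groups did not overlap).

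The aspartate aminotransferases of the malate-aspartate shuttle, which moves cytosolic reducing power into mitochondria, were named after their values were seen. Got1, the cytosolic enzyme, had 381, 514 and 540.2 CPM in exercise and 273, 227 and 197 CPM in sedentary libraries (1.04 ± 0.23, or 0.95 ± 0.18 without sedentary 6; adjusted p = 0.00517 by DESeq2). Got2, the mitochondrial one, had 698, 777 and 889.6 CPM against 476, 457 and 434 CPM (0.79 ± 0.20, or 0.77 ± 0.14; adjusted p = 0.00387 by DESeq2). Neither gene overlapped between the groups.

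Branched-chain amino acid and ketone metabolism had 13 of 21 members higher in all exercise libraries and 0 lower, against 7.68% and 6.76% of all genes tested. The median was 0.44. Without sedentary 6 the counts were 14 and 0, against 15.6% and 15.3% of all genes, with a median of 0.34. Bckdha, a subunit of the dehydrogenase that commits branched-chain keto acids to oxidation, had 203, 198 and 220.2 CPM in exercise and 132, 126 and 128 CPM in sedentary libraries (0.69 ± 0.18, or 0.70 ± 0.11 without sedentary 6), and was the member called by DESeq2 (adjusted p = 0.00261). Bcat2, the mitochondrial transaminase of the first step, had 79.9, 69.7 and 79.7 CPM against 61.8, 48.5 and 51.7 CPM (0.50 ± 0.18, or 0.48 ± 0.15). Further down, Ivd of the leucine branch and Hibadh of the valine branch had 0.55 ± 0.19 and 0.78 ± 0.30, or 0.46 ± 0.12 and 0.52 ± 0.11 without sedentary 6, and did not overlap. The enzymes of ketone use, Bdh1 and Oxct1, overlapped. Bdh1 had 46.5, 75.5 and 88.3 CPM against 34.6, 47.9 and 3.53 CPM, and Oxct1 118, 189 and 198 CPM against 309, 104 and 152 CPM, so that sedentary 6 set the low end of Bdh1 and sedentary 4 the high end of Oxct1.

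The respiratory chain turned with sedentary 6. Over all genes tested, 7.68% lay higher and 6.76% lower in all exercise libraries, or 15.6% and 15.3% without sedentary 6. Of 37 nuclear complex I subunits, 2 lay higher in all exercise libraries and 0 lower, with a median of -0.15, but without sedentary 6 the counts were 24 and 0 and the median 0.31. For 37 subunits of complexes III to V the counts were 6 and 0 with a median of -0.08, and 29 and 0 with a median of 0.37 without sedentary 6. The 13 mitochondrially encoded subunits had 0 of 13 log2 fold changes above 0 and a median of -0.24 with all libraries, and 13 of 13 above 0 and 0.43 without sedentary 6. The 2 complex I subunits without overlap were Ndufa10 and Ndufa9. Ndufa10 had 285, 281 and 329 CPM in exercise and 238, 205 and 199 CPM in sedentary libraries (0.48 ± 0.19, or 0.44 ± 0.13 without sedentary 6). Among the others, Atp5b, the catalytic beta subunit of ATP synthase, had 2832, 3139.8 and 3550.1 CPM against 2367, 2208 and 1709.8 CPM (0.60 ± 0.23, or 0.48 ± 0.14), and Uqcrfs1, the Rieske iron-sulfur protein of complex III, 497, 528 and 549 CPM against 412, 337 and 322 CPM (0.56 ± 0.20, or 0.50 ± 0.13). These did not overlap in either case. Ndufa2, an accessory subunit of complex I, was highest in sedentary 6 and had 107, 108 and 96.9 CPM against 98.9, 90.2 and 367 CPM (-0.84 ± 0.53, or 0.15 ± 0.12). Ckmt2, the mitochondrial creatine kinase that hands the energy of ATP to creatine, had 1545, 2029 and 2453 CPM against 1212, 839 and 1117 CPM and no overlap (0.93 ± 0.26, or 0.98 ± 0.24 without sedentary 6).

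**Figure D3:**
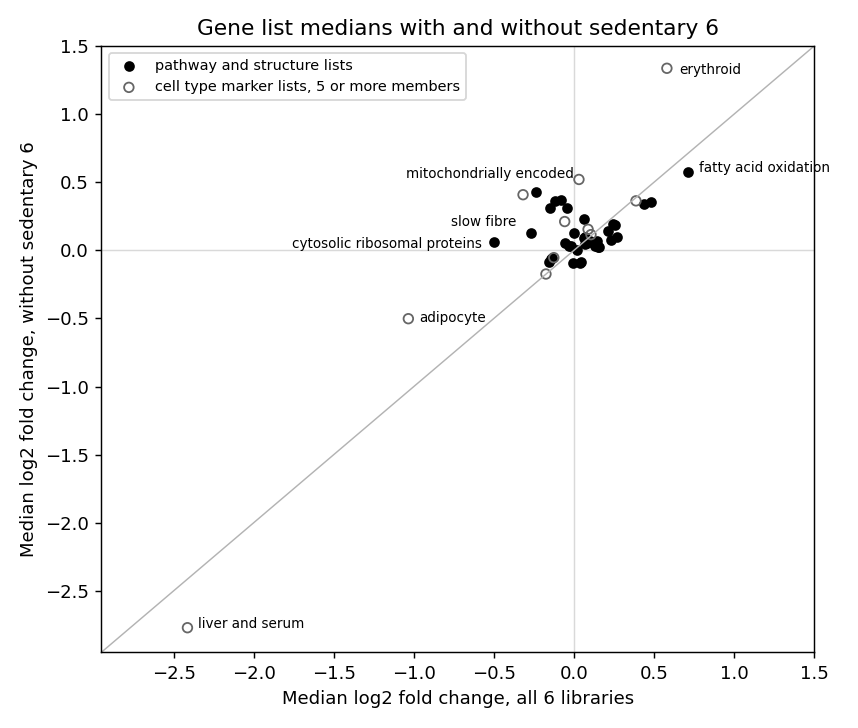
Each point is a gene list, placed by the median log2 fold change of its tested members with all 6 libraries (horizontal) and without sedentary 6 (vertical), filled for pathways and structures and open for cell type markers. Fatty acid oxidation (0.71 and 0.57) and the TCA cycle (0.48 and 0.35) lie on the positive side of both axes, while ribosomal proteins (-0.50 and 0.06) and mitochondrially encoded genes (-0.24 and 0.43) change sides.

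Of 20 regulators of mitochondrial biogenesis 4 lay higher and 1 lower in all exercise libraries, against 7.68% and 6.76% of all genes tested, with a median of 0.27. Without sedentary 6 the counts were 5 and 3, against 15.6% and 15.3% of all genes, and the median was 0.10. Ppargc1a, which encodes PGC-1alpha, had 11.4, 18.4 and 20.3 CPM in exercise and 21.3, 40.4 and 15.9 CPM in sedentary libraries (-0.63 ± 0.38, overlapping, or -0.87 ± 0.34 without sedentary 6, where every exercise library lay below). Sirt3, the main mitochondrial deacetylase, had 11.8, 13.5 and 15.3 CPM against 11.2, 7.33 and 8.56 CPM and did not overlap (0.58 ± 0.23, or 0.55 ± 0.22). Perm1, a muscle-specific partner of PGC-1alpha, had 187, 281 and 269 CPM against 162, 194 and 139 CPM (0.57 ± 0.24, or 0.47 ± 0.19), with exercise 4 just below sedentary 5.

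In the AMPK pathway, 4 of 22 members lay higher and 0 lower in all exercise libraries, against 7.68% and 6.76% of all genes tested. The median was 0.16. Without sedentary 6 the counts were 6 and 4, against 15.6% and 15.3% of all genes, with a median of 0.02. Prkaa2, the catalytic subunit that dominates in muscle, had 113, 127 and 100.3 CPM in exercise and 142, 139 and 43.3 CPM in sedentary libraries (0.07 ± 0.42, or -0.30 ± 0.13 without sedentary 6). Acacb, which AMPK inhibits and which makes the malonyl-CoA that blocks Cpt1b, had 447, 446 and 564 CPM against 342, 431 and 278 CPM (0.47 ± 0.24, or 0.34 ± 0.16) and did not overlap. These are transcript levels and carry nothing on the phosphorylation by which AMPK acts. Cd47, the receptor the study is about, had 13.6, 15.2 and 13.8 CPM against 13.4, 13.7 and 15.5 CPM, with a log2 fold change of 0.00 ± 0.17, or 0.08 ± 0.14 without sedentary 6. Of the 17 members of the CD47 and thrombospondin list, Cd36 was the 1 without overlap on the higher side and 0 lay lower. Without sedentary 6, 3 lay higher and 1 lower.

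Fibre type genes were read next, since oxidative and glycolytic fibres differ in their myosins. Myh2, the myosin of fast oxidative type 2A fibres, had 1629, 2411 and 2484 CPM in exercise and 879.8, 1068 and 993 CPM in sedentary libraries (1.15 ± 0.25, or 1.17 ± 0.21 without sedentary 6; adjusted p = 0.00121 by DESeq2), with no overlap. Myh1, of the intermediate type 2X fibres, had 3041, 4615 and 7147 CPM against 1192, 2855 and 2711 CPM (1.13 ± 0.44, or 1.30 ± 0.54), again with no overlap but a wide spread among the exercise libraries. Myh4, of glycolytic type 2B fibres and the most abundant of the 4 adult genes, had 49790.3, 42399 and 41079.6 CPM against 53999.9, 62641 and 38513 CPM (-0.22 ± 0.27, or -0.38 ± 0.17) and overlapped. Myh7, of slow fibres, had 301, 475 and 319.5 CPM against 247, 427 and 567 CPM (-0.18 ± 0.34, or 0.13 ± 0.30) and overlapped.

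Set per transcript length, Myh2 made up 2.95, 4.79 and 4.83% of the CPM per kilobase of the 4 genes in exercise and 1.55, 1.58 and 2.30% in sedentary libraries. The means were 4.19 ± 1.07% (SD, n = 3) and 1.81 ± 0.426% (SD, n = 3), by an exact two-sided permutation test p = 0.1, the smallest possible. The share of Myh1 was 5.50, 9.17 and 13.9% in exercise and 2.09, 4.22 and 6.28% in sedentary libraries (exact p = 0.2), and that of Myh4 91.0, 85.1 and 80.7% against 95.9, 93.6 and 90.1% (exact p = 0.2). Only Myh2 was apart between the groups, and Myh7 was 0.532 to 0.922% against 0.424 to 1.28% (exact p = 0.8). Reads of these closely related genes can be split in counting. Whether more type 2A myosin goes with the fatty acid oxidation genes library by library was not tested.

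**Figure D4:**
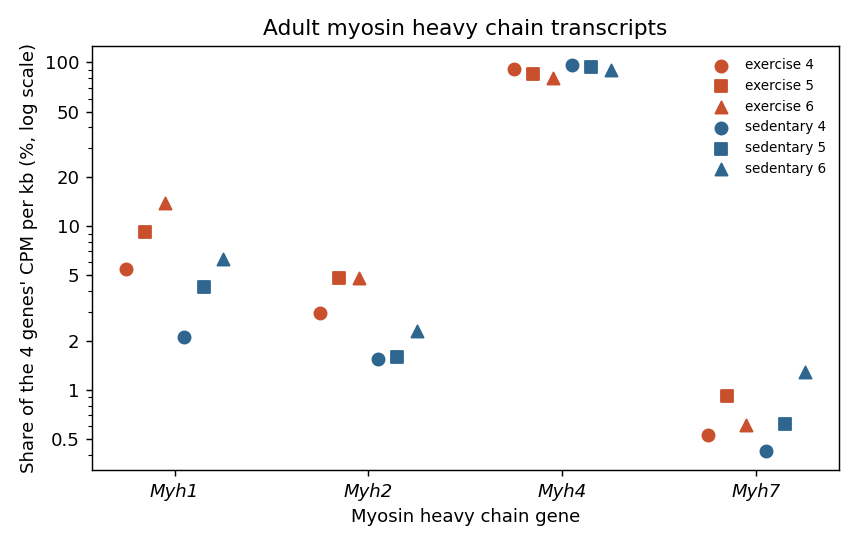
Share of each adult myosin heavy chain gene in the summed CPM per kilobase of the 4 genes, in percent on a log axis, with 1 point per library. The Myh2 points of exercise (2.95 to 4.83%) lie above those of sedentary (1.55 to 2.30%), while the points of the other 3 genes overlap between the groups.

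The wider fibre lists are given by their counts. Over all genes tested, 7.68% lay higher and 6.76% lower, or 15.6% and 15.3% without sedentary 6. Of 19 slow fibre genes 3 lay higher (Casq2, Lmod2 and Actn2) and 0 lower in all exercise libraries, with a median of -0.27, or 4 and 1 with a median of 0.13 without sedentary 6. Lmod2, which lengthens thin filaments, had 169.9, 233 and 225 CPM in exercise and 81.5, 152 and 78.3 CPM in sedentary libraries (1.01 ± 0.31, or 0.85 ± 0.29). Several slow genes were highest in sedentary 6, such as Myl2, the slow regulatory light chain, with 202, 261 and 146 CPM against 185, 287 and 855 CPM. Of 26 fast fibre genes 2 lay higher (Myh1 and Myh2) and 2 lower (Pvalb and Tnnc2), with a median of -0.15, or 3 and 4 with a median of -0.09 without sedentary 6. Pvalb, the calcium buffer parvalbumin of fast fibres, had 8659, 7489 and 6843 CPM against 9342, 8738 and 13499.5 CPM (-0.46 ± 0.26, or -0.22 ± 0.15).

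Of 22 genes listed for the triad and calcium release, 5 lay lower and 2 higher in all exercise libraries, against 6.76% and 7.68% of all genes tested, while 15 of 22 log2 fold changes were above 0 and the median was 0.05. Without sedentary 6 the counts were 8 lower and 3 higher, against 15.3% and 15.6% of all genes. In that setting 9 of 22 were above 0 and the median was -0.09. Cacna2d1, the alpha-2-delta subunit of the muscle calcium channel, had 17.4, 25.1 and 17.8 CPM in exercise and 38.1, 39.97 and 98.8 CPM in sedentary libraries (-1.55 ± 0.40, or -0.94 ± 0.18 without sedentary 6; adjusted p = 0.0441 by DESeq2). Trdn, triadin, which anchors calsequestrin to the ryanodine receptor, had 128, 148 and 99.6 CPM against 192, 200.3 and 189 CPM (-0.63 ± 0.21, or -0.64 ± 0.17), and Asph, whose locus also encodes junctin, 96.9, 99.2 and 88.2 CPM against 128, 132 and 135 CPM (-0.47 ± 0.17, or -0.44 ± 0.11). The other members below were Jsrp1 and Mss51 (-0.96 ± 0.38 and -1.70 ± 0.62), of which Mss51 encodes a muscle protein found at mitochondria rather than at the triad. Ryr1, the release channel itself, overlapped (0.02 ± 0.27, or -0.16 ± 0.16 without sedentary 6).

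Titin (Ttn), the giant spring of the sarcomere, had 3471, 4874 and 2887 CPM in exercise 4, 5 and 6 and 8648, 11219 and 7603 CPM in sedentary 4, 5 and 6. The log2 fold change was -1.29 ± 0.29, or -1.39 ± 0.23 without sedentary 6 (adjusted p = 0.00304 by DESeq2), and every exercise library lay below every sedentary one. Nebulin (Neb), another giant transcript, overlapped, with 2115, 2154 and 1578 CPM against 2914, 3622 and 1762 CPM (-0.51 ± 0.31, or -0.73 ± 0.18). Other abundant RNAs, chosen after their values were seen, were lower as well: the nuclear RNA Malat1 (238, 429 and 183 CPM against 573, 725 and 1021 CPM), the signal recognition RNA symbol Rn7s2 (37.2, 65.4 and 21.7 CPM against 110.4, 98.6 and 177 CPM) and the mitochondrial ribosomal RNA mt-Rnr2 (2656, 4054 and 2107 CPM against 6283, 5973 and 13714 CPM). None of these overlapped, with log2 fold changes of -1.45 ± 0.38, -1.63 ± 0.43 and -1.56 ± 0.42, or -1.18 ± 0.38, -1.32 ± 0.48 and -1.05 ± 0.26 without sedentary 6. The 2 clone symbols above were also lower in each exercise library, and what RNA selection contributes to Ttn and these RNAs was not tested.

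Of 34 fasting and atrophy genes 5 lay higher and 0 lower in all exercise libraries (median 0.21), against 7.68% and 6.76% of all genes tested. Without sedentary 6 the counts were 9 and 4 (median 0.14), against 15.6% and 15.3%. The muscle ubiquitin ligases overlapped, with 473, 468 and 558 CPM against 436, 848 and 303 CPM for Trim63 (-0.08 ± 0.37, or -0.35 ± 0.27) and 585, 512 and 677 CPM against 613, 747 and 408 CPM for Fbxo32 (0.00 ± 0.27, or -0.19 ± 0.16). Gadd45a, a stress gene of denervated muscle, had 16.1, 17.3 and 14.03 CPM against 12.2, 10.8 and 6.67 CPM and did not overlap (0.68 ± 0.26, or 0.48 ± 0.16), and Sesn1, a leucine sensor that restrains mTORC1, had 22.2, 29.97 and 26.04 CPM against 21.1, 18.6 and 11.7 CPM (0.60 ± 0.26, or 0.41 ± 0.16), also without overlap. In the autophagy and lysosome list 5 of 32 lay higher and 1 lower (median 0.13), or 6 and 5 without sedentary 6 (median 0.03). Ctsb, the protease cathepsin B, had 324, 345 and 357 CPM against 241, 232 and 216 CPM (0.57 ± 0.18, or 0.55 ± 0.11; adjusted p = 0.0374 by DESeq2).

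Clock genes depend on the hour of collection, which is not given. Of 22 clock genes 4 lay higher and 0 lower in all exercise libraries (median 0.23), or 5 and 5 without sedentary 6 (median 0.08). The shares over all genes tested were 7.68% and 6.76%, or 15.6% and 15.3% without sedentary 6. Dbp, a clock output factor, had 73.8, 40.4 and 33.4 CPM in exercise and 29.2, 13.2 and 23.7 CPM in sedentary libraries (1.16 ± 0.39, or 1.23 ± 0.54 without sedentary 6), and Per2, of the negative limb, 22.1, 20.4 and 23.8 CPM against 16.3, 10.4 and 17.3 CPM (0.59 ± 0.23, or 0.74 ± 0.21), both without overlap. Arntl, the activator BMAL1 that peaks in the opposite phase, had 8.26, 8.42 and 12.6 CPM against 16.8, 27.96 and 10.7 CPM (-0.92 ± 0.37, overlapping at sedentary 6, or -1.18 ± 0.27 without it, where all exercise libraries lay below). Nr1d1, the repressor of Arntl, had 64.4, 51.8 and 76.8 CPM against 51.2, 46.4 and 53.5 CPM (0.35 ± 0.20, or 0.41 ± 0.17), overlapping at sedentary 6.

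Of 27 immediate early genes, which contraction induces acutely, 2 lay higher (Zfp36 and Ier5) and 0 lower in all exercise libraries, against 7.68% and 6.76% of all genes tested, with a median of 0.15 (0.03 without sedentary 6). Fos had 12.4, 15.9 and 50.5 CPM in exercise and 27.6, 39.8 and 4.501 CPM in sedentary libraries (0.13 ± 0.79, or -0.35 ± 0.72) and Egr1 4.32, 9.73 and 27.97 CPM against 11.4, 13.6 and 6.75 CPM (0.40 ± 0.63, or 0.17 ± 0.85). Nr4a3, an orphan receptor that responds to a bout of exercise, had 2.46, 6.79 and 5.67 CPM against 11.9, 23.98 and 5.68 CPM (-1.47 ± 0.57, or -1.84 ± 0.50), with sedentary 6 within the exercise range. Exercise 6 held the highest Fos and Egr1 values of all 6 libraries, and exercise 4 the lowest Egr1.

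Among 19 myokines, the proteins that muscle secretes, 2 lay higher in all exercise libraries and 0 lower (median 0.08). The shares over all genes tested were 7.68% and 6.76%. Il15, a cytokine of muscle and immune cells, had 5.504, 10.1 and 8.31 CPM in exercise and 3.23, 2.36 and 2.67 CPM in sedentary libraries (1.52 ± 0.29, or 1.51 ± 0.30 without sedentary 6; adjusted p = 0.00123 by DESeq2). Fndc5, the precursor of irisin, had 63.3, 97.9 and 98.1 CPM against 57.3, 51.6 and 53.1 CPM (0.68 ± 0.22, or 0.68 ± 0.20). Il15 kept its difference without sedentary 6, and its highest sedentary value was below its lowest exercise value. Vegfa, an angiogenic factor that contraction induces, overlapped, with 38.7, 72.5 and 74.5 CPM against 55.5, 74.4 and 108 CPM (-0.36 ± 0.34, or -0.06 ± 0.31).

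Ribosomal protein genes turned with sedentary 6. Of 76 cytosolic ribosomal protein genes 1 had a log2 fold change above 0 with all libraries, against 47.2% of all genes tested. The median was -0.50, and 7 lay lower and 0 higher in every exercise library, against 6.76% and 7.68% of all genes. Without sedentary 6, 60 of 76 were above 0, against 51.5% of all genes, and the median was 0.06. In that setting 13 lay higher and 7 lower, against 15.6% and 15.3% of all genes. Rps12, of the small subunit, had 72.4, 65.1 and 65.3 CPM in exercise and 83.7, 79.6 and 193 CPM in sedentary libraries (-0.81 ± 0.36, or -0.26 ± 0.11), so that sedentary 6 was far above the rest. Proteasome genes kept the sign of their median: of 36, 7 lay lower and 1 higher (median -0.14), or 14 and 2 without sedentary 6 (median -0.06). Psmd6, of the regulatory cap, had 71.98, 78.9 and 75.4 CPM against 88.5, 92.2 and 92.2 CPM (-0.27 ± 0.17, or -0.25 ± 0.10), and Psma3, of the core ring, 56.5, 62.002 and 51.9 CPM against 66.6, 68.7 and 88.2 CPM (-0.39 ± 0.19, or -0.24 ± 0.12).

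**Figure D5:**
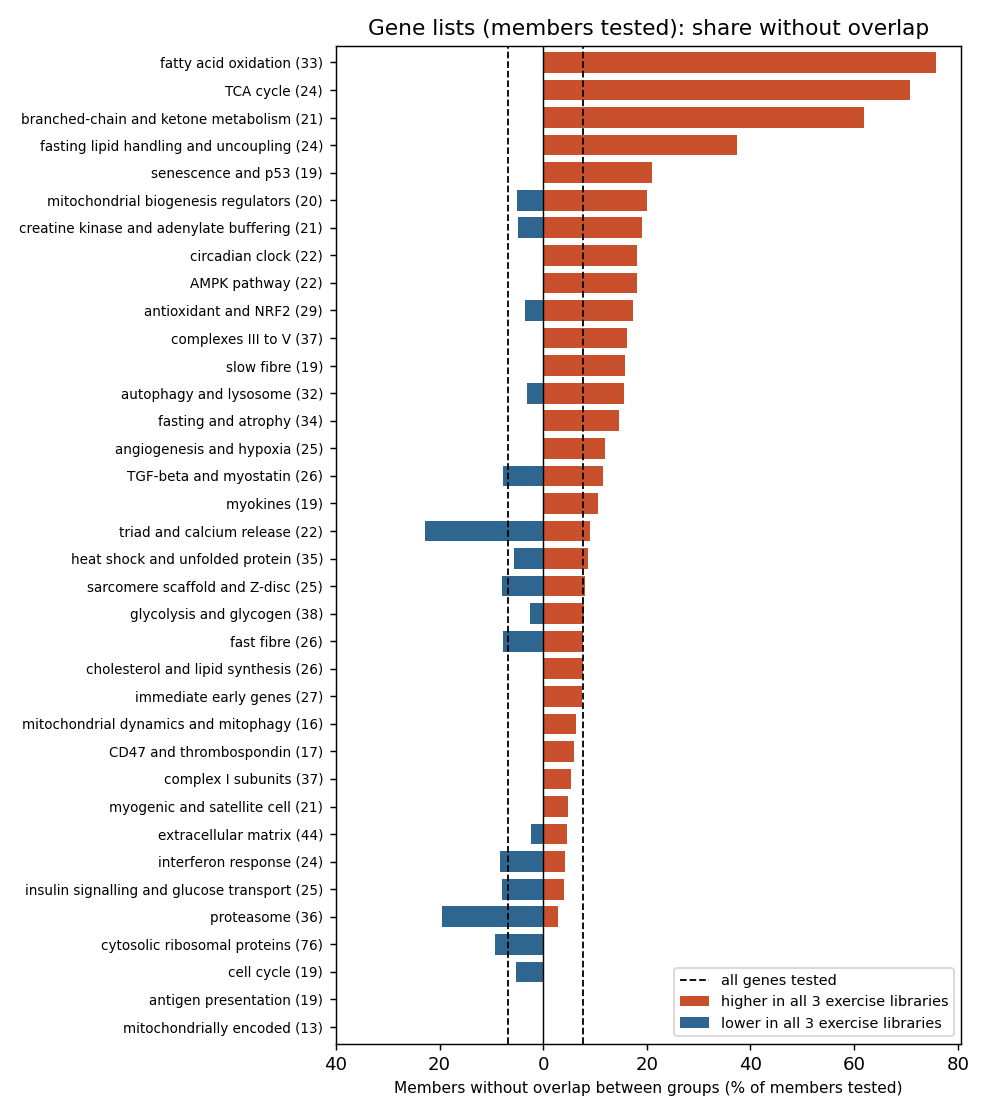
Share of tested members of each gene list that lay higher (to the right) or lower (to the left) in all 3 exercise libraries than in all 3 sedentary libraries, in percent, with dashed lines at 7.68% and 6.76% for all genes tested. Fatty acid oxidation (25 of 33), the TCA cycle (17 of 24) and branched-chain and ketone metabolism (13 of 21) reach farthest to the right.

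Muscle fibre markers summed to 160127 to 174719 CPM in exercise and 144776 to 188686 CPM in sedentary libraries, and all 12 of them had counts, as the tissue label has it. Of 15 sums over marker lists of other cell types and of sex-linked genes, 1 did not overlap between the groups. Liver and serum markers, of which 5 of 16 passed the filter, summed to 5.30 to 7.75 CPM in exercise and 9.30 to 29.6 CPM in sedentary libraries (exact two-sided permutation test p = 0.1, the smallest possible, 0.9 after Benjamini-Hochberg adjustment over 18 sums). Alb, serum albumin, had 0 counts in exercise and 0.162, 6.18 and 0.2103 CPM in sedentary libraries, and Ahsg, fetuin A, 0 counts and 0.257, 0.825 and 0.252 CPM, where 3 counts are 0.0371 to 0.0383 CPM in the exercise libraries. The part of this trace in the results was not tested. The endothelial sum was 318 to 411 CPM against 225 to 429 CPM. Of 11 endothelial markers 0 were apart with all libraries (median 0.03). Without sedentary 6, 8 lay higher and 0 lower (median 0.52), against 15.6% and 15.3% of all genes tested. Among the 8 was Cdh5, the cadherin of vessel walls (70.2, 60.6 and 73.4 CPM against 44.2, 46.8 and 87.5 CPM). Erythroid markers ranged widely, at 341 to 1246 CPM in exercise and 215 to 658 CPM in sedentary libraries. Y-linked Ddx3y was present in all 6 libraries, at 10.8, 15.05 and 9.65 CPM in exercise and 18.1, 19.2 and 21.2 CPM in sedentary libraries.

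At the neuromuscular junction, where nerve meets fibre, 5 of 13 genes lay higher and 0 lower in all exercise libraries, with a median of 0.39. The shares over all genes tested were 7.68% and 6.76%. Without sedentary 6 the counts were 6 and 1, against 15.6% and 15.3% of all genes, with a median of 0.36. Chrna1, the alpha subunit of the acetylcholine receptor, had 20.1, 16.6 and 18.3 CPM in exercise and 13.9, 13.9 and 8.05 CPM in sedentary libraries (0.62 ± 0.25, or 0.42 ± 0.15). Etv5, a transcription factor of the nuclei under the junction, had 8.77, 10.8 and 10.7 CPM against 5.95, 6.505 and 6.62 CPM (0.66 ± 0.20, or 0.71 ± 0.17). Colq, the collagen tail of acetylcholinesterase, had 11.97, 10.1 and 8.26 CPM against 6.58, 8.15 and 5.55 CPM (0.58 ± 0.24, or 0.47 ± 0.21). The other members apart were Chrnd and Chrne (0.89 ± 0.31 and 0.27 ± 0.20), while Musk, the receptor kinase of the junction, overlapped (-0.49 ± 0.30, or -0.68 ± 0.23).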

How the data were processed

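The authors deposited counts per gene, 22798 symbols in 1 table, of which the 6 columns used here were matched to samples by the names in the sample descriptions. Per the submitters' processing notes, the authors used Trimmomatic 0.30, HISAT2 2.0.1, HTSeq 0.6.1 and GRCm38. The strand setting is not given in the sources used here, so overlapping and antisense genes cannot be told apart.

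Counts were filtered with filterByExpr, scaled by TMM and tested with edgeR 4.0.16 (quasi-likelihood, robust, prior count 2, R 4.3.3), adjusted by Benjamini-Hochberg over 15714 genes at a threshold of 0.05. SEs came from the fold change and its F statistic. DESeq2 1.42.0, limma 3.58.1 (voom), other filters and scalings, a GC correction (lowess, span 0.3), a replicate block and leaving out each library were alternatives. Fits were tested on simulated data.

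Named genes were the 6 smallest p-values in each direction above a mean log2-cpm of 1 (clone names, Xist and the Y-linked markers passed over), up to 4 of each list by p-value, and fixed genes; list members named to describe a list, and those said to be so, were picked after their values were seen. Members and the 52 lists were chosen with earlier results of these data known. Of the symbols, 22716 matched the annotation once, 43 several times and 39 not at all. Some list members enter the counts but are not reported by name here.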

Additional observations from a re-analysis of the deposited data

How the results depend on the processing

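With the number of calls as the measure, edgeR's 0 became 1 without a filter on low counts (Gm15564) and 101 with DESeq2, and stayed 0 with RLE factors, limma-voom, a stricter filter, no robust dispersion, counts divided by 4, a GC correction, and libraries without mitochondrially encoded genes and the 2 clone symbols, a setting in which the mitochondrially encoded list has no value. Leaving out 1 library at a time gave 0 to 8 calls and 453 to 1886 genes with an unadjusted p under 0.05: 1 call without exercise 5 (Rsc1a1), 2 without exercise 6 (Adnp and Gm15564) and 8 without sedentary 6, and with 563 unadjusted genes without exercise 5 and 453 without exercise 6. Alternatives chosen after seeing the data gave 515 calls (DESeq2), 2 (limma-voom) and 2 (GC correction) without sedentary 6 and 1 (Selenoi) with libraries weighted by limma, with 2041, 1861, 1744 and 1860 genes at an unadjusted p under 0.05.

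The replicate block by title number called 0 genes, with 576 at an unadjusted p under 0.05, and 0 and 585 together with the GC correction. Same-numbered libraries did not deviate together (correlations of -0.0127, -0.0499 and -0.00925), so the numbers were not used as pairs.

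Without 1 library in turn the median log2 fold change was 0.57 to 0.81 for fatty acid oxidation, 0.35 to 0.63 for the TCA cycle and 0.34 to 0.55 for branched-chain and ketone metabolism. Leaving out sedentary 6 changed the sign of 18 of 52 list medians and of 23 of 235 named genes. The limits are 3 libraries a group, 1 of them apart from all others, deeper exercise libraries and counts that favour 4, 8 and 12; the cause of each was not tested.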

Other observations

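Members of further gene groups are given here as values in exercise 4, 5 and 6 against sedentary 4, 5 and 6, with no gene passing edgeR's test and with 7.68% of all genes tested higher and 6.76% lower in every exercise library. In glycolysis and glycogen, 3 of 38 genes lay higher and 1 lower in all exercise libraries (median log2 fold change 0.02, or 0.00 without sedentary 6). Ldhb, the lactate dehydrogenase subunit of oxidative tissue, had 215, 331 and 383 CPM against 146, 140.2 and 197 CPM (log2 fold change 0.94 ± 0.28 with its SE, or 1.12 ± 0.23 without sedentary 6), and Slc16a1, a lactate carrier, 37.7, 43.2 and 51.5 CPM against 30.4, 37.5 and 19.6 CPM (0.60 ± 0.27, or 0.39 ± 0.16). In insulin signalling and glucose transport 1 of 25 lay higher and 2 lower. Without sedentary 6 the counts were 1 and 8, against 15.6% and 15.3% of all genes. Slc2a4, the insulin-responsive glucose transporter GLUT4, lay higher in all exercise libraries by 0.23 ± 0.19 (0.18 ± 0.11 without sedentary 6), and Insr, the insulin receptor, lower by -0.65 ± 0.25 (-0.42 ± 0.18), with 8.61, 11.5 and 12.4 CPM against 14.3, 15.04 and 21.9 CPM. In the antioxidant list 5 of 29 lay higher and 1 lower (medians 0.10 and 0.07). Catalase (Cat) had 182, 243 and 250.2 CPM against 134, 161 and 69.2 CPM (0.89 ± 0.33, or 0.62 ± 0.16), and heme oxygenase Hmox1 overlapped with 16.8, 37.6 and 33.8 CPM against 11.8, 17.3 and 4.77 CPM (1.38 ± 0.49, or 1.02 ± 0.38).

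Receptors and ligands of the myostatin and TGF-beta family had 3 of 26 members higher and 2 lower in all exercise libraries (medians -0.15 and -0.07). For this and the next lists the shares over all genes tested were 7.68% and 6.76%. In the myostatin and TGF-beta list 10 of 26 log2 fold changes were above 0, and the range was -0.80 to 0.64. Mstn, myostatin itself, had -0.185, or -0.51 without sedentary 6 and 0.28 without sedentary 4. Acvr2a, an activin receptor, had 4.61, 5.67 and 4.09 CPM against 9.62, 8.29 and 7.13 CPM (-0.80 ± 0.23, or -0.89 ± 0.20 without sedentary 6), and Gdf11, a close relative of myostatin, 6.11, 7.05 and 8.97 CPM against 13.1, 13.8 and 10.7 CPM (-0.76 ± 0.23, or -0.85 ± 0.19). Smad3, a signal carrier of these receptors, overlapped at sedentary 6, with 54.2, 65.2 and 67.3 CPM against 120.3, 133 and 66.04 CPM (-0.77 ± 0.29, or -1.01 ± 0.13). Of 25 genes of angiogenesis and hypoxia 3 lay higher and 0 lower (median -0.04). Without sedentary 6 the counts were 8 and 1 (median 0.31), against 15.6% and 15.3% of all genes. Among vessel genes, Cav1, the coat protein of caveolae, had 18.6, 24.1 and 24.3 CPM against 17.98, 11.6 and 14.9 CPM (0.59 ± 0.23, or 0.61 ± 0.22) and Flt1, a VEGF receptor, 41.2, 52.4 and 60.3 CPM against 30.7, 37.7 and 40.1 CPM (0.50 ± 0.21, or 0.60 ± 0.18), both without overlap. In the extracellular matrix list 2 of 44 lay higher and 1 lower, and 22 of 44 log2 fold changes were above 0. Lox, which cross-links collagen, had 1.82, 1.93 and 1.78 CPM against 2.78, 3.26 and 3.58 CPM (-0.79 ± 0.24, or -0.69 ± 0.23), also without overlap. Cryab, a small heat shock protein that protects desmin, lay between the sedentary libraries, at 489, 487 and 497 CPM against 281, 291 and 767 CPM (0.14 ± 0.40, or 0.79 ± 0.11 without sedentary 6). In that setting DESeq2 gave Cryab an adjusted p of 3.94e-11, while edgeR and limma-voom did not call it.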
